A study of Rattus norvegicus with 8 samples.

Results

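Expression of the Wnt ligands, their Frizzled and Ror receptors, the Lrp co-receptors, the secreted antagonists, the R-spondins and the nuclear factors of the pathway was examined in the neonatal rat ductus arteriosus (DA) and aorta. The members were all genes of the array annotation whose symbol is Wnt, Fzd, Sfrp, Dkk or Rspo followed by a number, together with Frzb, Wif1, Lrp5, Lrp6, Ror1, Ror2, Lef1, Tcf7, Tcf7l1, Tcf7l2 and Axin2. This gave 46 of 14506 genes, namely 17 ligands, 10 receptors, 2 co-receptors, 6 secreted proteins that bind Wnt, 4 Dickkopf genes, 3 R-spondins and 4 nuclear or feedback genes. Fzd7, Fzd10, Wnt7a, Wnt11, Rspo4 and Tcf7l2 are not analysed here. The groups were the DA of Brown-Norway (BN) rats, the BN aorta, the DA of Fischer344 (F344) rats and the F344 aorta, each with 2 replicate Affymetrix Rat Gene 1.0 ST arrays. All animals were full-term neonates taken 1 h after birth, no genotype or treatment is given for either inbred strain, and RNA was extracted from pooled tissues. The labels name no separate animals or litters behind the replicates, so every p-value reflects the spread among these samples alone, which may be technical.

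Wnt proteins are secreted lipid-modified ligands that bind Frizzled receptors. With the co-receptors Lrp5 and Lrp6 they stabilise beta-catenin, which acts in the nucleus with the Lef and Tcf factors and induces feedback genes such as Axin2. Through Ror receptors and planar polarity proteins they also act without beta-catenin. Sfrp proteins, Frzb and Wif1 capture Wnt outside the cell, Dickkopf proteins such as Dkk1 block Lrp5 and Lrp6, and R-spondins raise the amount of receptor at the surface through Lgr receptors. In the vessel wall the pathway is known for roles in smooth muscle growth and in endothelial differentiation, and in the cardiac outflow region for roles in neural crest and progenitor cells.

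All values are RMA values on the log2 scale, on which a difference of 1 is 2-fold. Means of 6 erythroid markers split the replicates of every group (8.15 to 8.47 on the arrays numbered 2, above 9 on those numbered 1), and lymphoid markers stood apart on BN DA replicate 1, as given with Tcf7 and Lef1. Array medians lay between 6.96 and 7.05. The values of different probe sets depend on their probes, so levels are compared between samples and not between genes. Smooth muscle markers were bright on every array, and Tfap2b, a ductus transcription factor gene, lay between 9.25 and 9.92 on the DA arrays and between 5.51 and 6.75 on the aorta arrays. The BN DA replicates differed most from each other, with an SD of the replicate difference of 0.32 over the members, against 0.246 in BN aorta, 0.217 in F344 DA and 0.173 in F344 aorta. In BN DA, Dkk2, Fzd6, Tcf7, Tcf7l1 and Wnt5a lay at least 0.5 apart, against 2 members in BN aorta, 2 in F344 DA and 1 in F344 aorta.

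The RefSeq promoter table (build GRCr8, 250 bases before to 50 after the gene start) held 32 of the 46 members. Shown here are Wnt2b and Dkk1, which were lower in DA, Sfrp2, which was higher, and Axin2, the feedback gene commonly used as a readout of beta-catenin. Wnt2b lies at chr2:195156896-195157195, minus strand, Dkk1 at chr1:237798601-237798900, minus strand, Sfrp2 at chr2:171387286-171387585, plus strand and Axin2 at chr10:94398535-94398834, plus strand. Capitals mark matches, on either strand, to GCCNNNGGC, a motif of the AP-2 factors to which Tfap2b belongs and which reads the same on both strands, or to CTTTGAT, a core of the TCF/LEF motif.
Wnt2b: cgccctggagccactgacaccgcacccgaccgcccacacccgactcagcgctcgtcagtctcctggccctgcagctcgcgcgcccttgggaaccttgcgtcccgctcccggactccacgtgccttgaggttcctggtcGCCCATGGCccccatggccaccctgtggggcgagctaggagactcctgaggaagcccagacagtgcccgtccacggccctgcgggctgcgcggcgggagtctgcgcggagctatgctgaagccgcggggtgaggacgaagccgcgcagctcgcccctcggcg
Dkk1: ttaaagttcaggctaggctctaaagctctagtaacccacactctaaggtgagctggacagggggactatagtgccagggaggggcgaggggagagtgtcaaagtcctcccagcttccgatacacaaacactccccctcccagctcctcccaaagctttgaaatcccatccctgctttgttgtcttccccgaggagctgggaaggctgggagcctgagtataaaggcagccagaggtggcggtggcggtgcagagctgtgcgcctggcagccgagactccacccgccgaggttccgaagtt
Sfrp2: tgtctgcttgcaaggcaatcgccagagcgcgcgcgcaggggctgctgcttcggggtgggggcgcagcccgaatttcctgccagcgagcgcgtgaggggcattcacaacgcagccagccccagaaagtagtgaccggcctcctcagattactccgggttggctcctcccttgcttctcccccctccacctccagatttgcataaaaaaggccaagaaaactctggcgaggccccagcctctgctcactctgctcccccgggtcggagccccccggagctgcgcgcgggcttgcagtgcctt
Axin2: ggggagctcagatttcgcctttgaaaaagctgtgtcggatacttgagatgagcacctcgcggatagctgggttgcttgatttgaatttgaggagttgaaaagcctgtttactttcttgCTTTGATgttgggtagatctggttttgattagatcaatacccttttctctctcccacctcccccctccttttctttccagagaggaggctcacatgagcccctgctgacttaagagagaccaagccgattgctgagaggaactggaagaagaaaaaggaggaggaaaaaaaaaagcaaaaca

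The AP-2 motif was present in 12 of the 32 member promoters (37.5%), against 15.12% of the 33469 promoters of the table, and the capitals in Wnt2b mark one such match. The TCF/LEF motif was present in 2 of 32 (6.25%), those of Axin2 and Tcf7, against 3.63% of all promoters. Promoters differ in base composition, which was not matched here, and a match describes letters, not binding.

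DA and aorta were compared in each strain and over both. In F344, 10 of the 46 members (21.7%) passed the test, Sfrp1, Sfrp2, Ror2 and Rspo3 higher in DA and Dkk1, Wnt2b, Wnt5a, Dkk3, Fzd8 and Fzd4 lower, against 14% of all genes (limma, Benjamini-Hochberg adjusted p under 0.05 over all 14506 genes). By direction, 8.7% of the members were higher and 13% lower, against 8.87% and 5.12% of all genes. Dkk1, Sfrp1, Wnt2b and Wnt5a (8.7%) differed by at least 1 without overlap of the arrays in F344, against 4.66% of all genes. In BN, 2 members (4.35%) passed, Sfrp1 higher and Wnt2b lower, against 1.81% of all genes (0.986% higher and 0.82% lower), and Dkk1 and Wnt2b differed by at least 1 without overlap, against 1.04%. Averaged over the strains, 11 members (23.9%) passed, Sfrp1, Sfrp2, Ror2 and Rspo3 higher and Dkk1, Wnt2b, Wnt5a, Fzd8, Rspo2, Dkk3 and Lrp6 lower, against 16.6% of all genes (10.1% higher and 6.47% lower). Dkk1, Sfrp1 and Wnt2b had average differences of at least 1 without overlap, against 1.78%.

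The calls lay among the brighter probe sets. Of the 23 members at or above the median mean of all genes, 9 passed in F344 (39.1%), against 9.8% of all such genes, and of the 23 dimmer members only Wnt5a passed (4.35%), against 18.2% of all dimmer genes. By direction, 4 of the 23 brighter members were higher and 5 lower in F344 DA, against 138 and 573 of all 7253 brighter genes. Of all 7253 dimmer genes, 1148 were higher and 169 lower, with a median difference of 0.15. The median difference of all brighter genes in F344 was -0.17 and that of the brighter members was -0.17. Over all members it was -0.01 in F344 and -0.03 in BN, against -0.04 and -0.00 over all genes, with 21 members above 0 and 25 below in F344 and 20 above and 26 below in BN. Centring the arrays on the brighter genes shifted every difference by 0.21 in F344, 0.05 in BN and 0.13 on average.

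Markers of several cell types moved with the tissue. All 8 smooth muscle markers had a positive DA minus aorta difference in both strains, with a mean of 11.83 and 11.67 in F344 DA, against 11.38 and 11.33 in F344 aorta, and of 11.73 and 11.52 in BN DA, against 11.49 and 11.27 in BN aorta. Of these Des and Cnn1 rose in F344, Des, Cnn1 and Tagln rose on average, and no marker of the list passed in BN, where Des differed by 0.60 (limma adjusted p = 0.385). Of 9 adventitial fibroblast markers, Pdgfra and Scara5 fell in both strains, and in F344 Pi16 also fell and Dpep1 rose. The means of that list were 9.71 and 9.57 in F344 DA, against 10.05 and 9.89 in F344 aorta, and 9.85 and 9.83 in BN DA, against 9.97 and 9.91 in BN aorta. All 12 macrophage and myeloid markers had a negative average difference, 5 of them called, with means of 7.12 and 6.96 in F344 DA, against 7.66 and 7.42 in F344 aorta, and of 7.32 and 7.51 in BN DA, against 7.83 and 7.75 in BN aorta. Of 7 measured epithelial and mesothelial markers, the keratin gene Krt8 fell in both strains. In F344 Krt8, Krt18 and Epcam passed, 1 of them higher in DA and 2 lower. The list was mixed, with 5 positive and 2 negative differences on average. The part of these cell types in the differences described next was not tested.

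**Figure D1:**
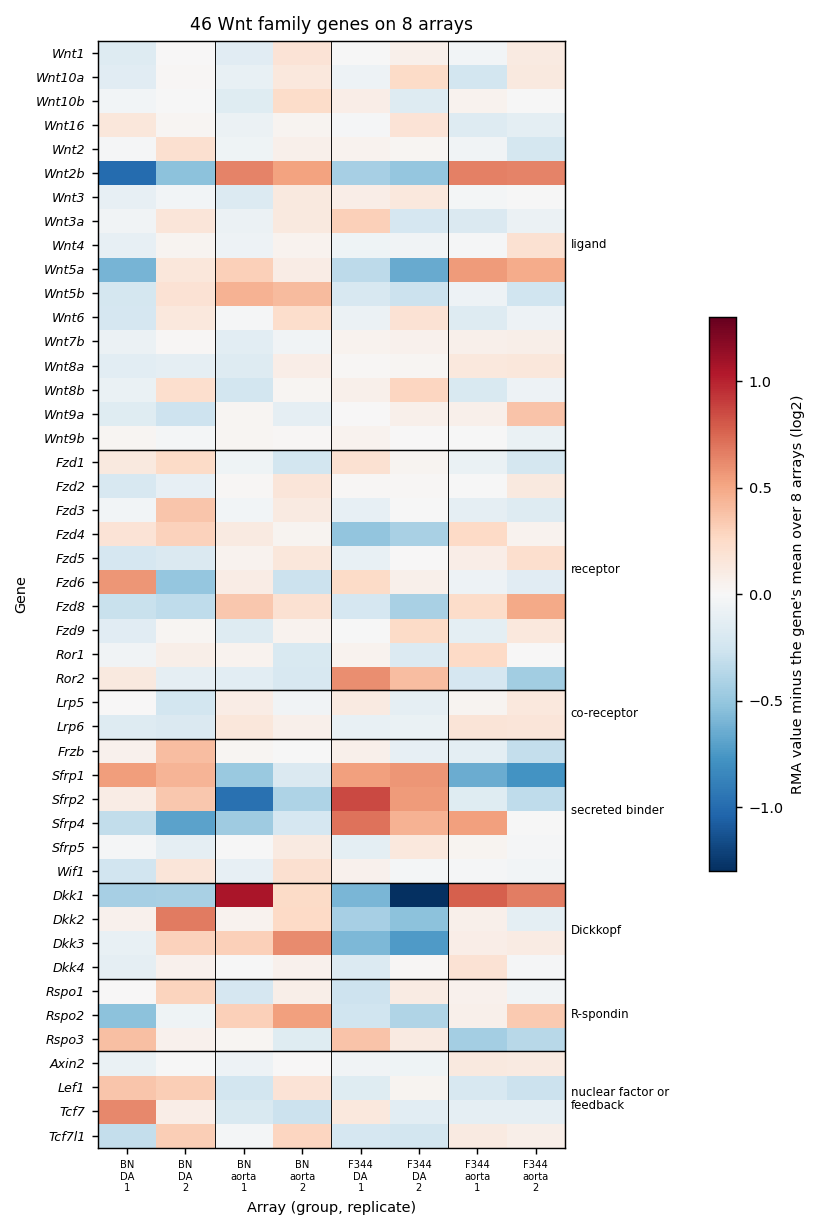
Heat map of the 46 genes (rows, grouped by role) on the 8 arrays (columns, by group and replicate), coloured by the log2 RMA value minus the gene's own mean over all arrays. Wnt2b and Dkk1 are below their mean on all 4 DA arrays and above it on all 4 aorta arrays, and Sfrp1 and Sfrp2 show the reverse.

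Among the ligands, Wnt2b fell in the DA of both strains, and Wnt5a fell in F344 and on average. Wnt2b, a ligand that can act through beta-catenin, was at 7.23 and 7.70 in BN DA, against 8.88 and 8.75 in BN aorta. In F344 it was at 7.80 and 7.73 in DA, against 8.88 and 8.88 in aorta. For Wnt2b all DA arrays were below all aorta arrays. The fall was 2.55-fold in BN (log2 difference -1.35 ± 0.16 SE, limma adjusted p = 0.0059) and 2.17-fold in F344 (-1.11 ± 0.16, limma adjusted p = 0.00285; Entrez 116466). In BN the call was lost without aorta replicate 1 (limma adjusted p = 0.0844) and in a fit of the 4 BN arrays alone (0.0738). With bulk tissue, fewer cells that express a gene and less RNA per cell cannot be told apart.

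Wnt5a, known mainly for signalling without beta-catenin through Ror2, was at 6.97 and 6.66 in F344 DA, against 7.86 and 7.79 in F344 aorta, with no overlap. Its difference there was -1.02 ± 0.22 SE (limma adjusted p = 0.0171), and the call was lost without DA replicate 2, aorta replicate 1 or aorta replicate 2 (highest limma adjusted p = 0.141). In BN the DA arrays lay at 6.71 and 7.46, on either side of one of the aorta arrays at 7.62 and 7.41, and the difference of -0.43 ± 0.22 did not pass (limma adjusted p = 0.458). Wnt5a also passed on average over the strains (-0.72 ± 0.16, limma adjusted p = 0.0143), but not without F344 DA replicate 2, F344 aorta replicate 1 or BN aorta replicate 1 (highest limma adjusted p = 0.068).

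The other 15 ligands did not pass in any comparison. Their tissue differences lay between -0.45 and 0.17 in BN and between -0.18 and 0.30 in F344. Most of their probe sets were dim, from Wnt8a at 4.75 to 5.06 over the arrays upward, and a low value on this array does not show that a gene is silent. Wnt5b was at 6.63 and 7.05 in BN DA, against 7.31 and 7.27 in BN aorta, which did not overlap, and its difference of -0.45 ± 0.16 SE did not pass (limma adjusted p = 0.218).

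Of the 6 secreted binders, Sfrp1 and Sfrp2 rose in DA. Sfrp1, a soluble protein with a Frizzled-like domain, was at 11.87 and 11.76 in BN DA, against 10.84 and 11.13 in BN aorta. In F344 it was at 11.85 and 11.90 in DA, against 10.68 and 10.55 in aorta. The DA values of the strains lay between 11.76 and 11.90 and above every aorta value. It was 1.78-fold higher in BN (log2 difference 0.83 ± 0.14 SE, limma adjusted p = 0.0217) and 2.39-fold higher in F344 (1.26 ± 0.14, limma adjusted p = 0.0011; Entrez 84402). Leaving out any 1 array kept the F344 call, and the BN call was lost without BN aorta replicate 1 or any 1 F344 array (highest limma adjusted p = 0.185), and in a fit of the 4 BN arrays alone (0.146).

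Sfrp2 was at 11.51 and 11.77 in BN DA, against 10.45 and 11.02 in BN aorta. In F344 it was at 12.28 and 11.97 in DA, against 11.26 and 11.09 in aorta. The groups did not overlap in either strain, and the differences were close in size, at 0.91 ± 0.20 SE in BN, which did not pass (limma adjusted p = 0.0624), and 0.95 ± 0.20 in F344, which did (limma adjusted p = 0.0145), though not without any 1 of the 4 F344 arrays (highest 0.104). On average Sfrp2 was 1.9-fold higher in DA (limma adjusted p = 0.00266; Entrez 310552), and this held without any 1 array.

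Frzb, a secreted binder known from cartilage, was bright on all arrays, at 11.90 and 12.24 in BN DA, 11.86 and 11.83 in BN aorta, 11.90 and 11.73 in F344 DA and 11.71 and 11.53 in F344 aorta. Its tissue differences were 0.22 ± 0.15 SE in BN and 0.20 ± 0.15 in F344, and neither passed. Wif1 was dim, between 6.06 and 6.52 over the 8 arrays. Sfrp4, Sfrp5 and Wif1 did not pass between tissues, with differences between -0.16 and 0.32.

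Of the 4 Dickkopf genes, Dkk1 and Dkk3 fell in F344 DA. Dkk1, which blocks Lrp5 and Lrp6, was at 7.04 and 6.34 in F344 DA, against 8.42 and 8.31 in F344 aorta. In BN it was at 7.21 and 7.22 in DA, against 8.70 and 7.89 in aorta. Every DA array was below every aorta array. The gene was 3.19-fold lower in F344 DA (log2 difference -1.67 ± 0.27 SE, limma adjusted p = 0.00481; Entrez 293897), and this call held without any 1 array. In BN the difference of -1.08 ± 0.27 did not pass (limma adjusted p = 0.0916). Averaged over the strains Dkk1 was 2.6-fold lower (limma adjusted p = 0.00188).

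Dkk3, a divergent member of the family, was at 10.17 and 10.01 in F344 DA, against 10.83 and 10.86 in F344 aorta (-0.76 ± 0.16 SE, limma adjusted p = 0.016). In BN it was at 10.65 and 11.04 in DA, against 11.05 and 11.36 in aorta (-0.36 ± 0.16), which did not pass (limma adjusted p = 0.375). The arrays did not overlap in either strain, but in BN the gap was small. The F344 call was lost after centring on brighter genes (-0.55, limma adjusted p = 0.0823) and without any 1 of the 4 F344 arrays (highest limma adjusted p = 0.127). The average passed (-0.56 ± 0.12, limma adjusted p = 0.0112), but not after centring (0.0588) or without F344 DA replicate 2 (0.0549). Dkk2 and Dkk4 did not pass between tissues. Dkk4 lay between 6.59 and 6.96 over all arrays, and its F344 difference of -0.17 became 0.04 after centring.

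Of the 3 R-spondins, Rspo3 rose in F344 DA and on average, and Rspo2 fell on average. Rspo3, made by vascular and mesenchymal cells, was at 9.46 and 9.20 in F344 DA, against 8.64 and 8.73 in F344 aorta, and rose by 0.64 ± 0.16 SE (limma adjusted p = 0.0246). In BN it was at 9.48 and 9.14 in DA, against 9.11 and 8.93 in aorta, and the difference of 0.29 ± 0.16 did not pass (limma adjusted p = 0.481). The DA arrays of the strains covered the same range, and the lowest values were those of F344 aorta. The F344 call was lost without any 1 of the 4 F344 arrays (highest limma adjusted p = 0.157), and that of the average (0.47 ± 0.11, limma adjusted p = 0.0196) without F344 DA replicate 1, either F344 aorta array or BN aorta replicate 2 (highest limma adjusted p = 0.0804).

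Rspo2 was at 7.20 and 7.68 in BN DA, against 8.04 and 8.27 in BN aorta. In F344 it was at 7.47 and 7.34 in DA, against 7.80 and 8.07 in aorta. All DA arrays were below all aorta arrays. Neither strain passed alone, with -0.71 ± 0.18 SE in BN (limma adjusted p = 0.0903) and -0.53 ± 0.18 in F344 (0.0836), but the average did, at -0.62 ± 0.13 (1.54-fold lower, limma adjusted p = 0.00992), also without any 1 array. Rspo1 had values between 7.17 and 7.74 over the arrays and did not pass.

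**Figure D2:**
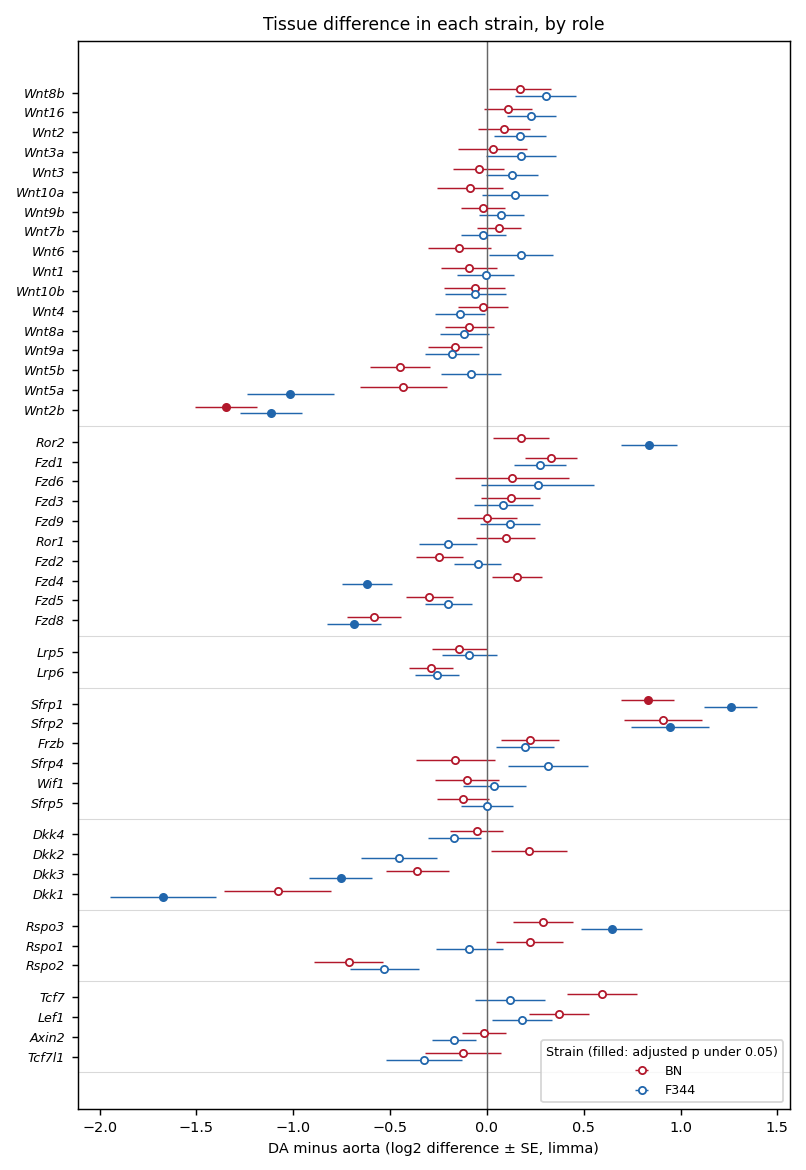
DA minus aorta (log2 difference ± SE from limma, n = 2 arrays a group) for each of the 46 genes, in BN (red) and F344 (blue), grouped by role from ligands at the top to nuclear and feedback genes at the bottom. Filled points passed at an adjusted p under 0.05, namely 2 in BN and 10 in F344.

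Of the 10 receptors, Ror2 rose and Fzd8 and Fzd4 fell in F344 DA (30%, against 14% of all genes). In BN 0 of the 10 passed by limma (3 at an unadjusted p under 0.05, Fzd1, Fzd5 and Fzd8), against 1.81% of all genes. Fzd8, a Frizzled receptor, was at 9.54 and 9.34 in F344 DA, against 9.998 and 10.25 in F344 aorta (-0.69 ± 0.14 SE, limma adjusted p = 0.0119). In BN it was at 9.47 and 9.43 in DA, against 10.11 and 9.96 in aorta (-0.58 ± 0.14, limma adjusted p = 0.0781). DA was below aorta without overlap in both strains, and the average passed at 1.55-fold lower (limma adjusted p = 0.00286), also without any 1 array. The F344 call was lost without DA replicate 2 or aorta replicate 2 (highest limma adjusted p = 0.111).

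Ror2, a receptor tyrosine kinase that binds Wnt5a, was at 9.64 and 9.43 in F344 DA, against 8.82 and 8.58 in F344 aorta, 1.79-fold higher (log2 difference 0.84 ± 0.15 SE, limma adjusted p = 0.00633; Entrez 306782). In BN it was at 9.16 and 8.92 in DA, against 8.90 and 8.83 in aorta, and the difference of 0.17 ± 0.15 did not pass (limma adjusted p = 0.693). F344 DA stood above the other 3 groups on both arrays. The F344 call was lost without DA replicate 1 or aorta replicate 2 (highest limma adjusted p = 0.061). On average Ror2 rose by 0.51 ± 0.10 (limma adjusted p = 0.00992), a call lost without F344 aorta replicate 2 (0.0504). Ror1, the related receptor, lay between 11.27 and 11.73 over all arrays and did not pass.

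Fzd4, a receptor that in endothelial cells also binds norrin, was at 10.31 and 10.40 in F344 DA, against 11.08 and 10.86 in F344 aorta (-0.62 ± 0.13 SE, limma adjusted p = 0.0136). In BN it was at 10.99 and 11.12 in DA, against 10.94 and 10.86 in aorta (0.16 ± 0.13, limma adjusted p = 0.69). The low values were those of F344 DA alone. Endothelial markers moved with them: 11 of 12 listed markers were measured, 6 fell and 0 rose in F344 DA, and their mean was 8.54 and 8.47 there, against 9.10 and 8.99 in F344 aorta, while in BN they averaged 9.04 and 8.82 for DA, against 8.88 and 8.94 for aorta. Their part in the Fzd4 difference was not tested. The call was lost after centring on brighter genes (-0.41, limma adjusted p = 0.0834) and without F344 DA replicate 1, DA replicate 2 or aorta replicate 1 (highest limma adjusted p = 0.136).

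The other 7 receptors, Fzd1, Fzd2, Fzd3, Fzd5, Fzd6, Fzd9 and Ror1, had tissue differences between -0.30 and 0.33 in BN and between -0.20 and 0.27 in F344. Fzd1 was at 9.67 and 9.79 in BN DA, against 9.49 and 9.30 in BN aorta, and at 9.75 and 9.58 in F344 DA, against 9.46 and 9.31 in F344 aorta. Its DA arrays were above its aorta arrays, and the average difference of 0.30 ± 0.09 SE did not pass (limma adjusted p = 0.0586). For Fzd5 the DA arrays were below the aorta arrays, and the average difference of -0.25 ± 0.09 did not pass either (limma adjusted p = 0.0814). Fzd3, a dim probe set, lay between 6.63 and 7.16.

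The co-receptors differed little. Lrp6 was at 10.54 and 10.52 in BN DA, against 10.86 and 10.78 in BN aorta, and at 10.62 and 10.62 in F344 DA, against 10.88 and 10.87 in F344 aorta. Although no DA array overlapped an aorta array, the average difference was small, at -0.27 ± 0.08 SE (limma adjusted p = 0.0467). That call was lost without any 1 of the 8 arrays (highest limma adjusted p = 0.151), after repeated quantile normalization (0.0785), after cyclic loess (0.12) and after centring on brighter genes (0.288). Lrp5 lay between 9.61 and 9.996 on all arrays, with differences of -0.14 ± 0.14 in BN and -0.09 ± 0.14 in F344. In F344 the Lrp5 difference turned positive after repeated quantile normalization (0.07), cyclic loess (0.07) and centring (0.12).

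**Figure D3:**
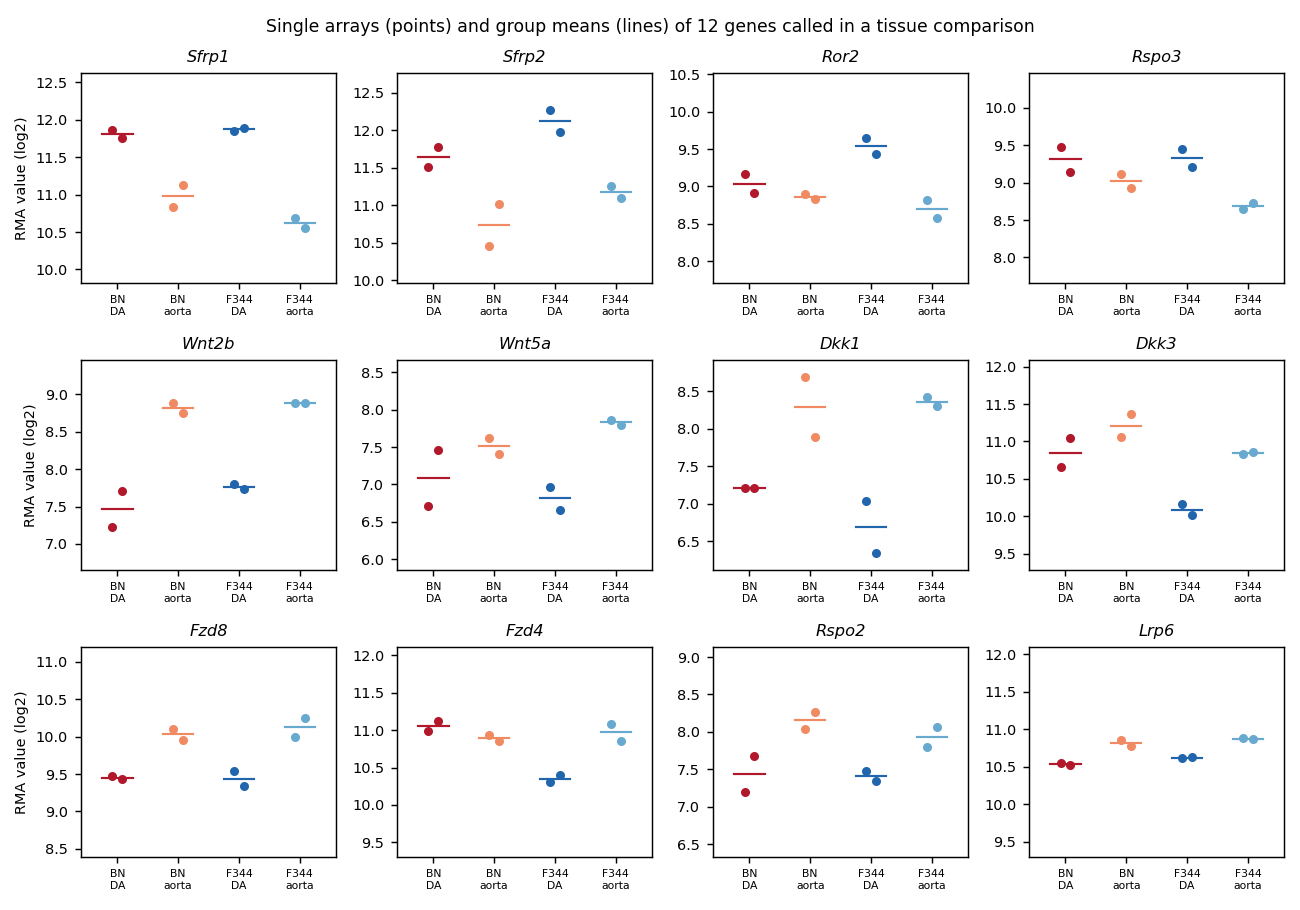
Log2 RMA values on single arrays (points) and group means (lines) of the 12 genes called in a tissue comparison, with groups from left to right BN DA, BN aorta, F344 DA and F344 aorta. Each panel spans the same height, and DA and aorta arrays do not overlap in either strain for 11 of the genes, Wnt5a in BN being the exception.

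None of the 4 nuclear and feedback genes passed in any comparison by limma. At an unadjusted p under 0.05 there were 2 between tissues in BN, Lef1 and Tcf7, 0 in F344, and 1 between strains in DA, Lef1. Axin2 was at 7.55 and 7.63 in BN DA, against 7.57 and 7.64 in BN aorta. In F344 it was at 7.59 and 7.58 in DA, against 7.76 and 7.75 in aorta. The difference was -0.02 ± 0.11 SE in BN and -0.17 ± 0.11 in F344 (limma adjusted p = 0.354), and the F344 value was -0.02 after repeated quantile normalization or cyclic loess and 0.04 after centring. The BN value was 0.02, 0.04 and 0.03 under those settings, so the sign of the Axin2 difference depended on the scaling. Over the 8 arrays it lay between 7.55 and 7.76.

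Lef1 was dim, at 7.005 and 6.96 in BN DA, against 6.41 and 6.82 in BN aorta, and at 6.49 and 6.68 in F344 DA, against 6.44 and 6.37 in F344 aorta. Its tissue difference was 0.37 ± 0.16 SE in BN (limma adjusted p = 0.327) and 0.18 ± 0.16 in F344 (0.465). Tcf7, named after its values were seen, was at 8.02 and 7.49 in BN DA, against 7.20 and 7.12 in BN aorta (0.59 ± 0.18, limma adjusted p = 0.157). Both encode transcription factors that T cells also use, and the 9 measured of 12 listed thymocyte and lymphocyte markers averaged 7.23 for BN DA replicate 1, the other 7 arrays lying between 5.97 and 6.11. Tcf7 was highest on that array, whereas Lef1 was nearly as high on BN DA replicate 2. The part of lymphoid cells in these values was not tested. Tcf7l1, the only member with more than 1 probe set, lay between 10.19 and 10.81 on the brightest of its 3.

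Strains were compared next, first in the DA. Of the 46 members 4 passed (8.7%), Dkk2, Dkk3 and Fzd4 higher and Sfrp4 lower in BN, against 4.53% of all genes. By direction, 6.52% of the members were higher and 2.17% lower, against 2.43% and 2.1% of all genes. Sfrp4 alone differed by at least 1 without overlap, against 1.31% of all genes. All 4 calls lay among the 23 brighter members, 3 higher and 1 lower, against 275 and 54 of all 7253 brighter genes. Brighter genes as a whole had a median BN minus F344 difference of 0.11 in DA.

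Sfrp4, a secreted Frizzled-related protein, was at 7.61 and 7.23 in BN DA, against 8.64 and 8.38 in F344 DA, 2.12-fold lower (log2 difference -1.09 ± 0.21 SE, limma adjusted p = 0.0258; Entrez 89803). In aorta it was at 7.47 and 7.71 in BN, against 8.46 and 7.93 in F344 (-0.61 ± 0.21, limma adjusted p = 0.694). All 4 BN arrays were below all 4 F344 arrays, and the average over tissues passed (-0.85 ± 0.15, limma adjusted p = 0.023). In DA the call was lost without either F344 DA array (highest limma adjusted p = 0.142) and in a fit of the 4 DA arrays alone (0.0515). The average was lost without either F344 DA array, F344 aorta replicate 1 or either BN aorta array (highest limma adjusted p = 0.0945).

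Dkk2 was at 7.95 and 8.58 in BN DA, against 7.47 and 7.36 in F344 DA (0.85 ± 0.20 SE, limma adjusted p = 0.0452). Dkk3 stood 0.76 ± 0.16 higher in BN DA (limma adjusted p = 0.0353) and Fzd4 0.70 ± 0.13 higher, which is 1.63-fold (limma adjusted p = 0.0233), with the values given above. For each of the 3 genes both BN DA arrays were above both F344 DA arrays. For Dkk2, Dkk3 and Fzd4 the differences were 0.70, 0.61 and 0.56 after centring on brighter genes, where none passed (limma adjusted p = 0.108 for Dkk2, 0.102 for Dkk3 and 0.0677 for Fzd4), nor in fits of the 4 DA arrays alone (0.11, 0.0934 and 0.0727). Dkk2 and Dkk3 also missed the threshold after repeated quantile normalization (0.0855 and 0.0654) and cyclic loess (0.107 and 0.0602). All 3 calls were lost without either F344 DA array, that of Dkk2 also without any other array but BN DA replicate 1, and that of Dkk3 also without either F344 aorta array or BN DA replicate 2 (highest limma adjusted p = 0.252 for Dkk2, 0.234 for Dkk3 and 0.143 for Fzd4). Lymphatic endothelial markers also differed in this comparison, with 4 of 6 higher in BN DA (66.7%, against 2.43% of all genes). Their means were 8.24 and 8.25 there, against 6.94 and 7.04 in F344 DA. Of the 11 endothelial markers 1, Sox17, was higher in BN DA. Acan, Krt8, C1qc and Cd4 of other marker lists were higher too. Acan was the only 1 of 3 measured cartilage markers with a positive difference, the other 2 being negative. Of the 8 smooth muscle markers 1 difference was positive and 7 were negative. Differences were positive for 11 of 12 macrophage and myeloid and 8 of 9 thymocyte and lymphocyte markers. The mean of the latter was high on BN DA replicate 1 alone, at 7.23, against 6.08 on BN DA replicate 2 and 6.10 and 6.11 in F344 DA. What any of these cell types contributes was not tested.

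In the aorta 0 members passed between BN and F344 by limma, against 0.159% of all genes (0.0827% higher and 0.0758% lower), and 0 differed by at least 1 without overlap, against 0.248%. At an unadjusted p under 0.05 there were 3 members, Wnt5b, Sfrp1 and Sfrp4 (6.52%, against 5.22% of all genes). Wnt5b was at 7.31 and 7.27 in BN aorta, against 6.79 and 6.60 in F344 aorta (0.60 ± 0.16 SE, limma adjusted p = 0.42). Averaged over tissues, Dkk3 (0.56 ± 0.12, limma adjusted p = 0.0411) and Sfrp4 passed, 2 of 46 members (4.35%), against 2.65% of all genes (1.63% higher and 1.02% lower), and 0 differed by at least 1 without overlap, against 0.221%. The Dkk3 call was lost after repeated quantile normalization (0.0629), after cyclic loess (0.0528), after centring (0.108), and without any 1 F344 array or BN aorta array (highest limma adjusted p = 0.169).

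**Figure D4:**
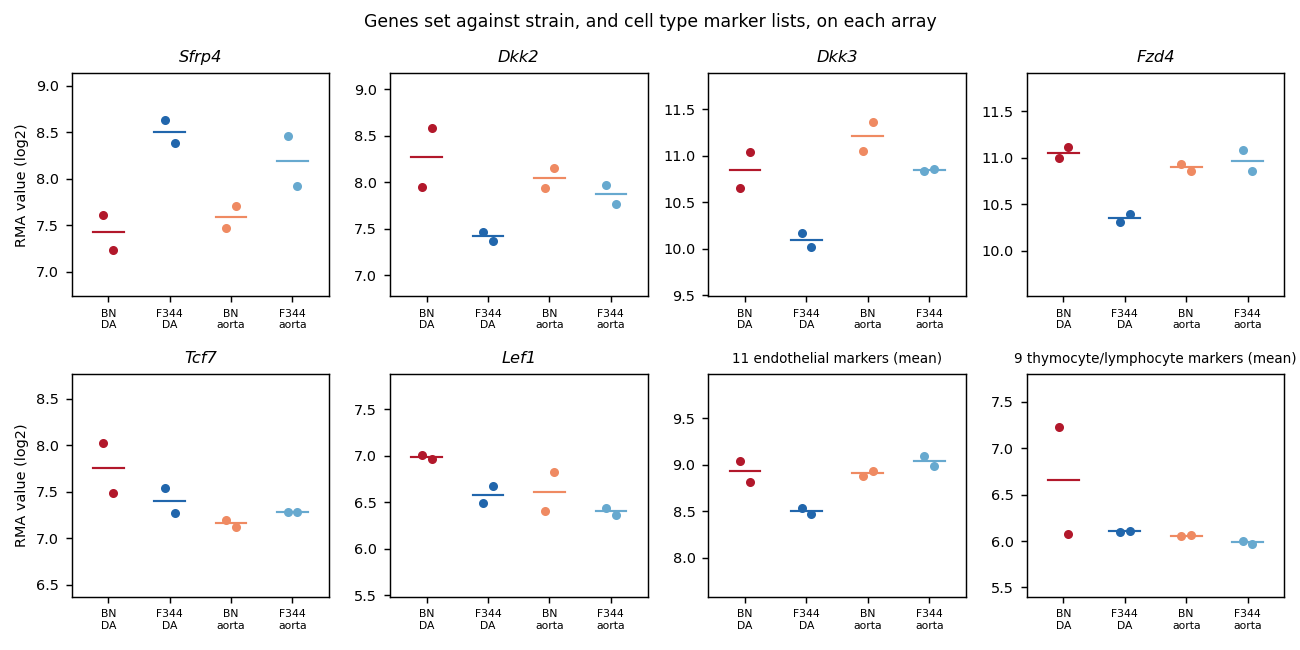
Log2 RMA values on single arrays (points) and group means (lines) of Sfrp4, Dkk2, Dkk3, Fzd4, Tcf7 and Lef1, and the mean of 11 endothelial and of 9 thymocyte and lymphocyte markers, with groups from left to right BN DA, F344 DA, BN aorta and F344 aorta. Fzd4 and the endothelial markers are lowest on the 2 F344 DA arrays, and Tcf7 and the lymphoid markers are highest on BN DA replicate 1.

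The interaction asks if the strains differ in their tissue contrast, and is the DA minus aorta difference in BN minus that in F344. By limma 0 members and 0% of all genes passed, the smallest adjusted p among the members being 0.285. At an unadjusted p under 0.05 there were 3 members (6.52%, against 9.67% of all genes), Fzd4 at 0.77 ± 0.18 SE, Ror2 at -0.66 ± 0.21 and Dkk2 at 0.67 ± 0.28. So the passing of Ror2, Fzd4, Dkk1, Dkk3, Fzd8, Rspo3, Sfrp2 and Wnt5a in F344 and not in BN is not shown to be a difference between the strains.

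The rest of the pathway was examined with 5 lists of genes that are no members. Of 16 measured genes of Wnt secretion and surface control, 3 fell and 0 rose in F344 DA (18.8%, against 14% of all genes), and 1, Gpc3, fell in BN DA (6.25%, against 1.81%), with a median difference of 0.06 in F344 and 0.02 in BN. Lgr4, a receptor for R-spondins, was at 8.57 and 8.33 in F344 DA, against 9.54 and 9.50 in F344 aorta (-1.07, limma adjusted p = 0.00285). Kremen1, a receptor for Dkk1, was at 8.13 and 8.11 in F344 DA, against 8.91 and 8.92 in F344 aorta (-0.79). Gpc3, a cell surface glypican, differed by -0.54 in F344 and -0.58 in BN. Porcn and Wls, which acylate and carry Wnt proteins, did not pass in either strain, with differences between -0.07 and 0.23.

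In the cytoplasmic part of the beta-catenin pathway, 0 of 22 genes passed in either strain by limma. Of all genes 14% passed in F344 and 1.81% in BN. At an unadjusted p under 0.05 there were 6 in F344 and 1 in BN. Tnks alone fell on average (-0.31), 4.55% of the list, against 16.6% of all genes. The median difference was -0.148 in F344 and -0.085 in BN, against -0.173 and -0.045 for all brighter genes. Ctnnb1, which encodes beta-catenin, differed by -0.20 in F344 and -0.21 in BN, and neither passed. Centring on brighter genes shifted every difference by 0.21 in F344 and 0.05 in BN. Of 8 nuclear cofactors 0 passed in either strain by limma (2 in each at an unadjusted p under 0.05). Only Tle3, a corepressor, fell on average (-0.34), 12.5% of that list, against 16.6% of all genes. Of 16 genes of the planar polarity and calcium branch 1 rose and 3 fell in F344 DA (25%, against 14% of all genes) and 0 passed in BN by limma (2 at an unadjusted p under 0.05). Daam1, a formin that links Wnt to the cytoskeleton, was at 8.69 and 8.63 in F344 DA, against 9.81 and 9.67 in F344 aorta (-1.08, limma adjusted p = 0.0041). Prickle3 and Vangl1, core polarity genes, differed by -0.56 and -0.51, and Celsr2 rose by 0.46.

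Of 25 symbols listed as common Wnt targets, many of which other pathways also control, 19 were measured. The list was chosen with earlier results of these data known, so its share of calls is a description only. In each strain 2 rose and 2 fell, 21.1% of those measured, against 1.81% of all genes in BN and 14% in F344. The same 4 genes passed in both strains. Tbx3 rose by 0.93 in BN and 1.10 in F344, and Bmp4 by 1.14 and 0.62. Ccn5 (known earlier as Wisp2) was at 8.82 and 8.52 in BN DA, against 10.03 and 9.73 in BN aorta, and at 8.96 and 8.79 in F344 DA, against 10.37 and 10.43 in F344 aorta, with differences of -1.21 and -1.53. Ccn4 (known earlier as Wisp1) differed by -0.90 in BN and -0.85 in F344. Myc (-0.08 and -0.13) and Ccnd1 (0.18 and 0.49) did not pass. Between strains Tnfrsf19 was higher in BN DA, at 8.66 and 9.27, against 7.03 and 7.41 in F344 DA (1.75, limma adjusted p = 0.00591).

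The genes whose values followed those of the 4 members with the smallest p in the averaged tissue comparison most closely were listed over the 8 arrays, which share the tissue and strain groups. For Wnt2b these were Plpp3, Sdc2 and Hoxa7 (Pearson r of 0.988, 0.986 and 0.984). For Sfrp1 they were Meis1, Cpe and Gpm6b (0.99, 0.985 and 0.983). For Dkk1 they were Dnmt3a, Nagk and Kdm8 (0.99, 0.99 and 0.988), and for Sfrp2 they were Pgk2, Or9i13 and Cd69 (0.984, 0.981 and 0.981). Among 14506 genes over 8 arrays such values are the highest of many, and they describe these arrays only.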

How the data were processed

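Total RNA from pooled tissue (150 ng an array) was hybridised to 8 arrays, 2 in each of 4 groups, per the labels. The deposited log2 values were made by the authors with RMA, a method of background correction, normalization and probe summary, per the submitters' processing notes. The sources used here do not give its version, settings or genome build. That the scale is log2 was read from the range of 1.07 to 14.2. The number of arrays limits the precision. Of 29215 probe sets, 15310 had 1 symbol in the platform annotation of 2016, 323 several, and 13582 were not named. The probe set with the highest mean was kept for each gene, and the 46 member symbols were the same in RefSeq (GRCr8).

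A limma model (version 3.58.1, R version 4.3.3) with a mean for each group was fitted to all genes and arrays (4 residual and 5.25 prior degrees of freedom), with two-sided tests and Benjamini-Hochberg adjustment over 14506 genes. Differences are given with model standard errors. The fit was tested on simulated data. Members, lists and the naming rule were chosen with earlier results of these data known. The rule named every member that passed, Lef1, Axin2, Lrp5 and Lrp6, the brightest and dimmest probe set of each role, members at least 1 apart without overlap, and up to 4 passing genes of each pathway list. Among the members, Wnt5b, Fzd1, Fzd5 and Tcf7 are given with values though outside this rule. Alternatives changed variance moderation, the dim gene filter, normalization, centring, probe set choice, replicate block, the arrays fitted and each array left out.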

Additional observations from a re-analysis of the deposited data

How the results depend on the processing

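For the 29 called member differences, 449 alternative values were computed, of which 355 kept direction and call, 94 kept direction without the call and 0 reversed. Variance moderation, the dim gene filter, the replicate block, fits of only the 4 arrays compared and leaving out an array outside a comparison do not change the difference itself. The count of 0 reversed was thus partly fixed in advance. With the replicate number as a block, 5 members passed between tissues in BN (Dkk1, Rspo2, Sfrp1, Sfrp2 and Wnt2b) in place of 2. In fits of only the 4 arrays compared, 0 passed between tissues in BN and 0 between strains in DA. Between strains in DA, 2 passed after centring on brighter genes (Sfrp4 and Ror2) in place of 4. Between strains over both tissues, 1 member, Sfrp4, passed after repeated quantile normalization, 1 after cyclic loess and 1 after centring, in place of 2. Leaving out 1 array at a time gave 0 to 6 members between tissues in BN, 4 to 12 in F344 and 8 to 14 on average, 0 to 4 between strains in DA and 0 to 4 over both tissues. The count of 0 in BN came without aorta replicate 1 and the count of 6, with Tcf7, without DA replicate 2, which leaves the array with high lymphoid markers. The cause of these shifts was not tested. The interaction and the strain comparison in aorta gave 0 members in every setting. Replicate numbers mark no shared litter or day in the labels, so the block is an alternative only. Replicate differences did correlate across groups, with r between 0.028 and 0.521, highest between BN DA and BN aorta. The erythroid means also split arrays numbered 1 from those numbered 2 in every group. What arrays of the same number share was not tested. Dim probe sets leave little room above background, which limits what most ligand values can show.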
